A study of Mus musculus with 14 samples.

Results

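Transcripts of 10 Bcl2 family genes were followed in mouse salivary gland cells sorted by a Tert reporter, with and without radiation. The genes were taken by name from a table of 54532 genes. They comprised 4 pro-survival members (Mcl1, Bcl2, Bcl2l1 and Bcl2a1b), 2 effectors (Bax and Bak1) and 4 BH3-only members (Bid, Bcl2l11, Pmaip1 and Bbc3). All 10 had a row in the table, and 9 passed the filter on low counts, which left 15915 genes to test. Bak1 did not pass.

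Proteins of the Bcl2 family govern the release of cytochrome c from mitochondria, the step that commits a cell to intrinsic apoptosis. Pro-survival members hold the effectors in check, effectors permeabilise the outer mitochondrial membrane, and BH3-only proteins either neutralise the pro-survival members or activate the effectors directly. After DNA damage the transcription factor p53 is known to switch on Bbc3, Pmaip1 and Bax, and lymphocytes are known for entering this pathway readily after irradiation.

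The mice were TertCreERT2/+ Rosa26LSL-tdTomato/+ in all 4 groups, so that a tamoxifen-dependent Cre expressed from the Tert locus activates tdTomato. Live EpCAM+ cells of the submandibular gland were sorted into tdTomato+ cells, named Tert+ here, and tdTomato- cells, named Tert-. Glands had received 15 Gy of radiation (RT) or none. The groups were Tert+ no RT (n = 3), Tert- no RT (n = 3), Tert+ RT (n = 4) and Tert- RT (n = 4), each library being made from 1 ng of RNA. Tamoxifen dosing, animal age and the interval between RT and sorting are not given in the sources used here. No label says that replicates were separate animals, so the p-values may measure technical spread only. Groups follow the sample titles. The sample descriptions and the names of the count columns mark each of the 14 libraries P or N, matching its title. Another label contradicts the titles on the population of all 14 libraries, so that Tert+ and Tert- would trade places in every comparison under that label. RT libraries all carry higher library numbers than the others, so RT and any order effect cannot be told apart. Tert+ and Tert- libraries of the same replicate number and RT state carry consecutive library numbers. Should they come from the same gland, comparisons averaged over both populations count each gland more than once. Their n of 8 with RT and 6 without are numbers of libraries.

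Total counts per library lay between 5520412 and 15943597, with 16289 to 19210 genes detected. Summed B cell markers (8 genes) were at 7772 to 12935 CPM, whereas 9 epithelial markers, Epcam among them, summed to 99.7 to 584 CPM. Acinar markers (8 genes) were present throughout, and granular duct markers (8 genes) summed to 754 to 14342 CPM. The libraries thus held RNA of B cells as well as of gland epithelium, although the sort was for EpCAM. In such bulk RNA, fewer cells of a type and less RNA per cell cannot be told apart. Within groups, the median rank correlation of a library with the others was 0.912 to 0.946. The lowest values belonged to Tert+ RT replicate 4 at 0.912 and replicate 3 at 0.922, and results are also given without this pair. Cdkn1a, a p53 target used as a check of radiation, rose after RT by 1.47 ± 0.33 (log2, SE) averaged over both populations (edgeR adjusted p = 0.0108). It passed in Tert+ alone at 2.11 ± 0.49 (edgeR adjusted p = 0.04) but not in Tert- alone, at 0.82 ± 0.46 (edgeR adjusted p = 0.359), and the difference did not pass (edgeR adjusted p = 1). For Tert+ against Tert-, Cdkn1a was at -1.73 ± 0.50 without RT and -0.44 ± 0.42 after RT (log2, SE). Neither passed (edgeR adjusted p = 0.671 and 0.928).

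Levels below are CPM, read counts scaled to library totals after TMM normalisation, and CPM per kilobase of gene length where genes are compared with each other. A gene was called at an adjusted p under 0.05. Bbc3 and Bid were called after RT, and Bax was higher in every RT library than in every no RT library of the Tert- cells. The 200 bases from 250 to 51 upstream of a RefSeq start are shown for these 3 genes, with any p53 half-site in capitals. They show whether a p53 half-site lies within these 200 bases. Bases nearer the start, and all bases downstream of it, were not searched. The sequences are from RefSeq on GRCm38.p6 (mm10), read 5′ to 3′ on the gene's strand.
Bbc3, chr7:16309333-16309532, plus strand, the most upstream of its starts: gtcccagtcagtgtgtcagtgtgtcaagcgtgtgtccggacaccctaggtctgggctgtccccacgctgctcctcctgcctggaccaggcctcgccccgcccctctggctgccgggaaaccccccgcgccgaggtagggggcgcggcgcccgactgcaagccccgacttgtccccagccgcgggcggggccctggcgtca
Bid, chr6:120916875-120917074, minus strand: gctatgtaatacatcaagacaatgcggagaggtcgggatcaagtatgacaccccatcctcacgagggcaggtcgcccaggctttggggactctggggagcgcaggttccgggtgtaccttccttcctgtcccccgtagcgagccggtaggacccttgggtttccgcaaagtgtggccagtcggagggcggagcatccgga
Bax, chr7:45466949-45467148, minus strand: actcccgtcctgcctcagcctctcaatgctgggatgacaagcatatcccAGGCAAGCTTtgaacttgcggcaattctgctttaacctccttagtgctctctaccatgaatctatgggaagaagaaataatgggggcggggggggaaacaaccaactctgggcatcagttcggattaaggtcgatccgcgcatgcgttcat
The Bax window held 1 half-site, starting 201 bases upstream, and the Bbc3 and Bid windows held none. The Bbc3 window lies inside the gene interval of the deposited table, which begins further upstream. Across all 32851 such windows in the mouse table, 5.82% held a match on either strand, and 1 of 14 windows of 9 members did. Pmaip1 was left out of these 9, and Bak1 was among them. The Bbc3 window was 73.0% G and C, the Bid window 61.0% and the Bax window 51.5%, where the median of all windows was 51.5%. A match is a stretch of letters, and binding was not measured here.

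Mcl1 (ENSMUSG00000038612, chromosome 3, 95658788 to 95663176), a short-lived pro-survival protein on which B cells are known to depend, had the highest length-scaled level of the 10. Its level was 283, 342 and 280 CPM in Tert+ no RT, and 340, 224 and 242 CPM in Tert- no RT. It was 254, 307, 309 and 297 CPM in Tert+ RT, and 274, 328, 361 and 263 CPM in Tert- RT. The groups overlapped. RT against no RT, averaged over both populations, gave a log2 fold change of 0.07 ± 0.11 (SE), or a fold of 1.05 with a 95% interval from 0.886 to 1.24 (edgeR adjusted p = 0.742). Mcl1 alone made up 32.4 to 46.0% of the length-scaled sum of the 10 genes in a library.

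Bcl2 (ENSMUSG00000057329, chromosome 1, 106538178 to 106714274), the founding pro-survival member, had a mean level of 93.3 ± 19.3 CPM in Tert+ no RT (SD, n = 3) and of 86.1 ± 20.0 CPM in Tert- no RT (SD, n = 3). Its mean after RT was 112 ± 16.7 CPM in Tert+ (SD, n = 4) and 96.2 ± 5.69 CPM in Tert- (SD, n = 4). Every group overlapped every other. The averaged RT effect was 0.21 ± 0.13 (log2, SE; edgeR adjusted p = 0.317).

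Bcl2l1 (ENSMUSG00000007659, chromosome 2, 152780668 to 152831728), which encodes Bcl-xL, was at 31.6, 33.1 and 22.0 CPM in Tert+ no RT and at 48.9, 35.0 and 60.9 CPM in Tert- no RT. The Tert+ libraries were all below the Tert- libraries there. The log2 fold change was -0.74 ± 0.36 (SE), with a 95% interval from -1.50 to 0.03, and did not pass (edgeR adjusted p = 1). After RT the values overlapped, at 25.9, 16.7, 50.2 and 21.9 CPM in Tert+ and 46.2, 38.8, 26.4 and 33.2 CPM in Tert-. The replicates of Tert+ RT spread widely, with replicate 3 highest.

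Bcl2a1b (ENSMUSG00000089929, chromosome 9, 89199209 to 89207827), a mouse homologue of the NF-kB-induced pro-survival gene BCL2A1, was at 9.03 to 16.2 CPM in Tert+ no RT and 14.3 to 24.5 CPM in Tert- no RT. After RT it ranged from 11.9 to 22.2 CPM in Tert+ and from 14.1 to 18.5 CPM in Tert-. Groups overlapped in each comparison. The mouse genome carries near-identical Bcl2a1 copies, among which reads may be split in a way the sources do not state, so this level is less certain. Bcl2a1b also shares 8449 bases with Gm29094 on the same strand, which had 13 counts over the 14 libraries. How reads in shared bases were counted is not given in the sources used here.

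Of the effectors, Bax (ENSMUSG00000003873, chromosome 7, 45461697 to 45466898), which forms pores in the outer mitochondrial membrane, was abundant. Its interval shares 915 bases with Gm45808 on the same strand, which had 0 counts. Bax was at 52.7, 69.4 and 88.3 CPM in Tert+ no RT and at 69.1, 66.9 and 60.2 CPM in Tert- no RT. After RT it was at 90.8, 60.3, 72.3 and 72.9 CPM in Tert+ and at 95.9, 69.5, 78.3 and 106 CPM in Tert-. In Tert- cells all RT libraries lay above all no RT libraries, the nearest pair being 69.5 and 69.1 CPM, whereas in Tert+ cells the ranges overlapped. The log2 fold change with RT was 0.42 ± 0.20 (SE) in Tert-, with an interval from -0.01 to 0.85, and 0.08 ± 0.20 in Tert+, and neither passed (edgeR adjusted p = 0.28 and 0.898). The difference between the populations was -0.34, with an interval from -0.95 to 0.27 (edgeR adjusted p = 1).

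Bak1 (ENSMUSG00000057789, chromosome 17, 27019810 to 27029009), the partner effector with overlapping function, was near the floor of detection in these libraries. It had 8, 0 and 4 counts in Tert+ no RT and 4, 11 and 0 counts in Tert- no RT. It had 0, 2, 7 and 0 counts in Tert+ RT and 2, 0, 7 and 4 counts in Tert- RT. The 49 counts in all are spread over every group, and the highest library reached 0.977 CPM. A count of 0 allows up to 3 counts, or 0.190 to 0.544 CPM in these libraries, counting error only. The gene lies within Ggnbp1 on the opposite strand, which had 224 counts over the 14 libraries. Whether counting used strand, and how reads in shared bases were counted, is not given in the sources used here. The Bak1 level is therefore less certain.

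Bbc3 (ENSMUSG00000002083, chromosome 7, 16308393 to 16318205), which encodes the p53-induced BH3-only protein Puma, was the member that rose after RT. It was at 5.86, 2.15 and 3.34 CPM in Tert+ no RT and at 4.79, 3.67 and 2.73 CPM in Tert- no RT. After RT it was at 5.23, 5.17, 6.82 and 16.3 CPM in Tert+ and at 14.1, 6.10, 7.93 and 9.92 CPM in Tert-. Tert- libraries did not overlap between RT and no RT, while in Tert+ the first no RT library lay above a pair of RT libraries and the fourth RT library lay far above the rest.

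Averaged over both populations, Bbc3 was at 8.96 ± 4.21 CPM with RT (SD, n = 8) and 3.76 ± 1.37 CPM without (SD, n = 6). This was a log2 fold change of 1.25 ± 0.40 (SE), or 2.38-fold with a 95% interval from 1.33 to 4.27 (edgeR adjusted p = 0.0476). Its counts were low, at 26 to 191 reads per library, and the call lay close to the threshold. It ended without the filter on low counts (edgeR adjusted p = 0.0916) and with a replicate block, where the log2 fold change was 1.01 (edgeR adjusted p = 0.113). It ended in 9 of 14 leave-outs. Among the no RT libraries these were Tert+ replicate 2 (edgeR adjusted p = 0.119 without it) and 3 (0.11), and Tert- replicate 2 (0.0989) and 3 (0.119). It also ended without Tert+ RT replicate 3 (0.0567) or 4 (0.0905) and without Tert- RT replicate 1 (0.0905), 3 (0.0672) or 4 (0.0716). The log2 fold change ran from 0.98 to 1.48 over the 14 leave-outs, and was 0.91 (edgeR adjusted p = 0.157) without both Tert+ RT replicates 3 and 4. Leaving out either Tert+ RT replicate 4 or that pair gave the smallest changes. In each population alone Bbc3 did not pass, with log2 fold changes of 1.16 ± 0.56 in Tert+ and 1.35 ± 0.56 in Tert- (SE; edgeR adjusted p = 0.287 and 0.212). The difference between the populations was -0.19, with an interval from -1.82 to 1.44 (edgeR adjusted p = 1).

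Bid (ENSMUSG00000004446, chromosome 6, 120891930 to 120916853), the BH3-only protein that caspase-8 cleaves to link death receptors to mitochondria, was the member that fell after RT. It was at 79.2, 165 and 124 CPM in Tert+ no RT and at 86.2, 129 and 97.5 CPM in Tert- no RT. After RT it was at 102, 76.1, 62.9 and 89.6 CPM in Tert+ and at 64.9, 71.9, 50.5 and 84.0 CPM in Tert-. The Tert- ranges did not overlap, and in Tert+ the first no RT library lay below some RT libraries.

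Averaged over both populations, Bid was at 75.3 ± 16.4 CPM with RT (SD, n = 8) and 113 ± 32.0 CPM without (SD, n = 6). It fell by 0.59 on the log2 scale (SE 0.17), to 0.664 of the no RT level with an interval from 0.514 to 0.857 (edgeR adjusted p = 0.0356). The call ended with library totals alone as the scaling, at -0.52 (edgeR adjusted p = 0.0794), and in 9 of 14 leave-outs. Those of no RT libraries were Tert+ replicate 2 (edgeR adjusted p = 0.123 without it) and 3 (0.0725), and Tert- replicate 2 (0.101) and 3 (0.0641). It also ended without Tert+ RT replicate 2 (0.0623) or 3 (0.0628) and without Tert- RT replicate 1 (0.0578), 2 (0.0552) or 3 (0.0698). The log2 fold change was -0.57 ± 0.24 in Tert+ and -0.62 ± 0.25 in Tert- (SE), and passed in neither (edgeR adjusted p = 0.238 and 0.192). Without both Tert+ RT replicates 3 and 4 it was -0.53 (edgeR adjusted p = 0.099). The end of Bid overlaps Bcl2l13 on the opposite strand by 913 bases, and Bcl2l13, another family member, had an averaged RT change of -0.12 (edgeR adjusted p = 0.745).

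**Figure D1:**
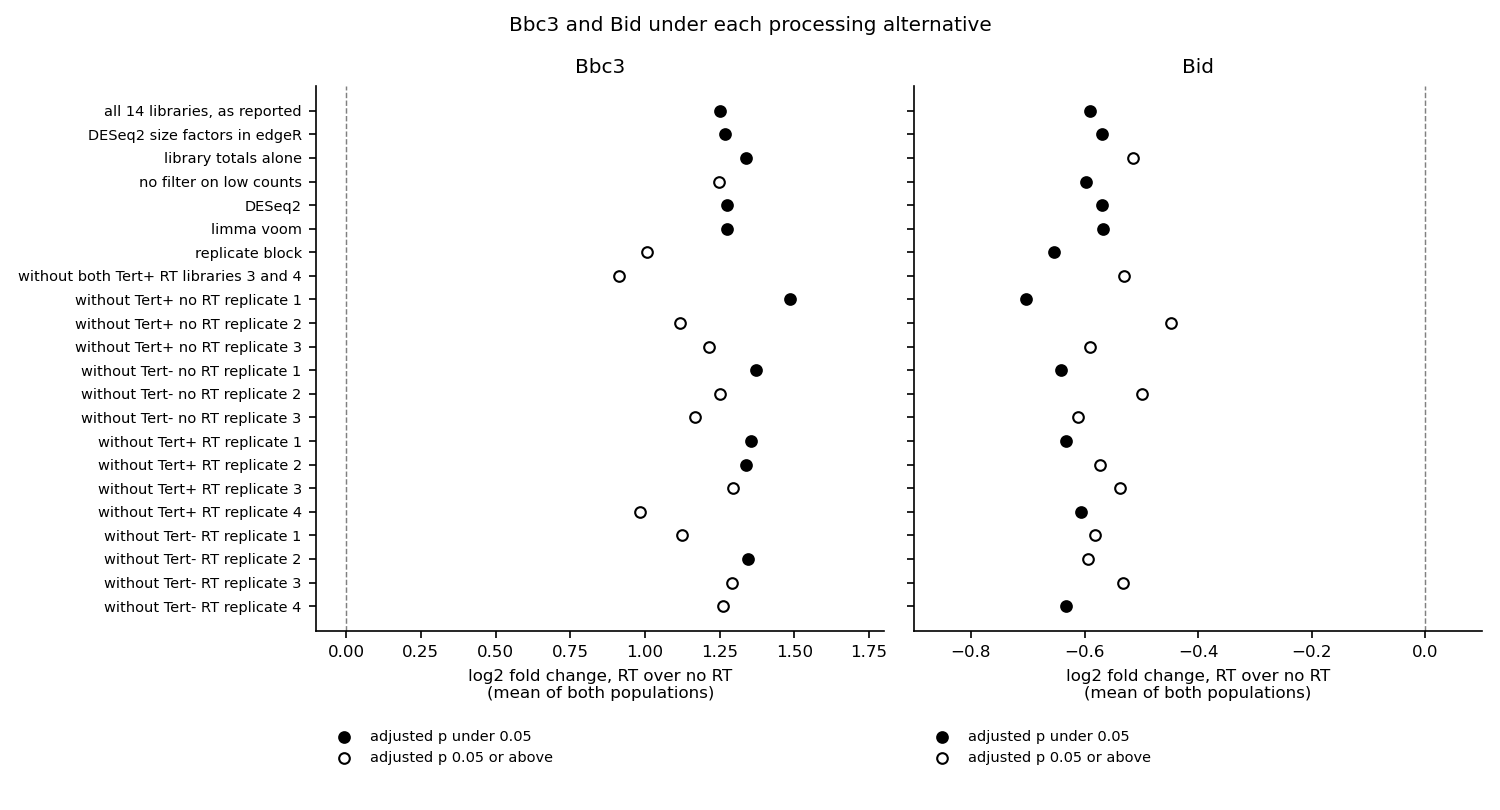
Averaged log2 fold change with RT (x axis) of Bbc3 (left) and Bid (right) under each processing alternative and with each library left out (y axis); filled points have an adjusted p under 0.05 and open points do not. Bbc3 stays above 0 in each, from 0.91 to 1.48, and Bid below 0, from -0.70 to -0.45, with filled points in some settings and open points in others.

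Bcl2l11 (ENSMUSG00000027381, chromosome 2, 128126038 to 128162547) encodes Bim, a BH3-only protein needed for lymphocyte death on cytokine withdrawal. It was at 48.7, 24.0 and 26.6 CPM in Tert+ no RT and at 68.4, 26.6 and 28.6 CPM in Tert- no RT. It was at 34.7, 67.9, 30.6 and 42.5 CPM in Tert+ RT and at 44.2, 48.4, 26.1 and 41.8 CPM in Tert- RT. In both no RT groups replicate 1 was the highest, and all groups overlapped. The averaged RT change was 0.18 ± 0.27 (log2, SE; edgeR adjusted p = 0.703).

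Pmaip1 (ENSMUSG00000024521, chromosome 18, 66458604 to 66465550) encodes Noxa, a p53-induced BH3-only protein that binds Mcl1. It was at 24.7, 20.9 and 17.7 CPM in Tert+ no RT and at 58.0, 31.6 and 24.1 CPM in Tert- no RT. It was at 14.5, 27.6, 29.1 and 48.8 CPM in Tert+ RT and at 26.7, 31.1, 47.3 and 48.8 CPM in Tert- RT. The no RT ranges met only at 24.7 and 24.1 CPM, with Tert+ lower, and those after RT overlapped widely. Without RT the Tert+ against Tert- change was -0.85 ± 0.41 (log2, SE), with an interval from -1.71 to 0.01 (edgeR adjusted p = 1). The averaged RT change was 0.27 ± 0.27 (edgeR adjusted p = 0.556).

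**Figure D2:**
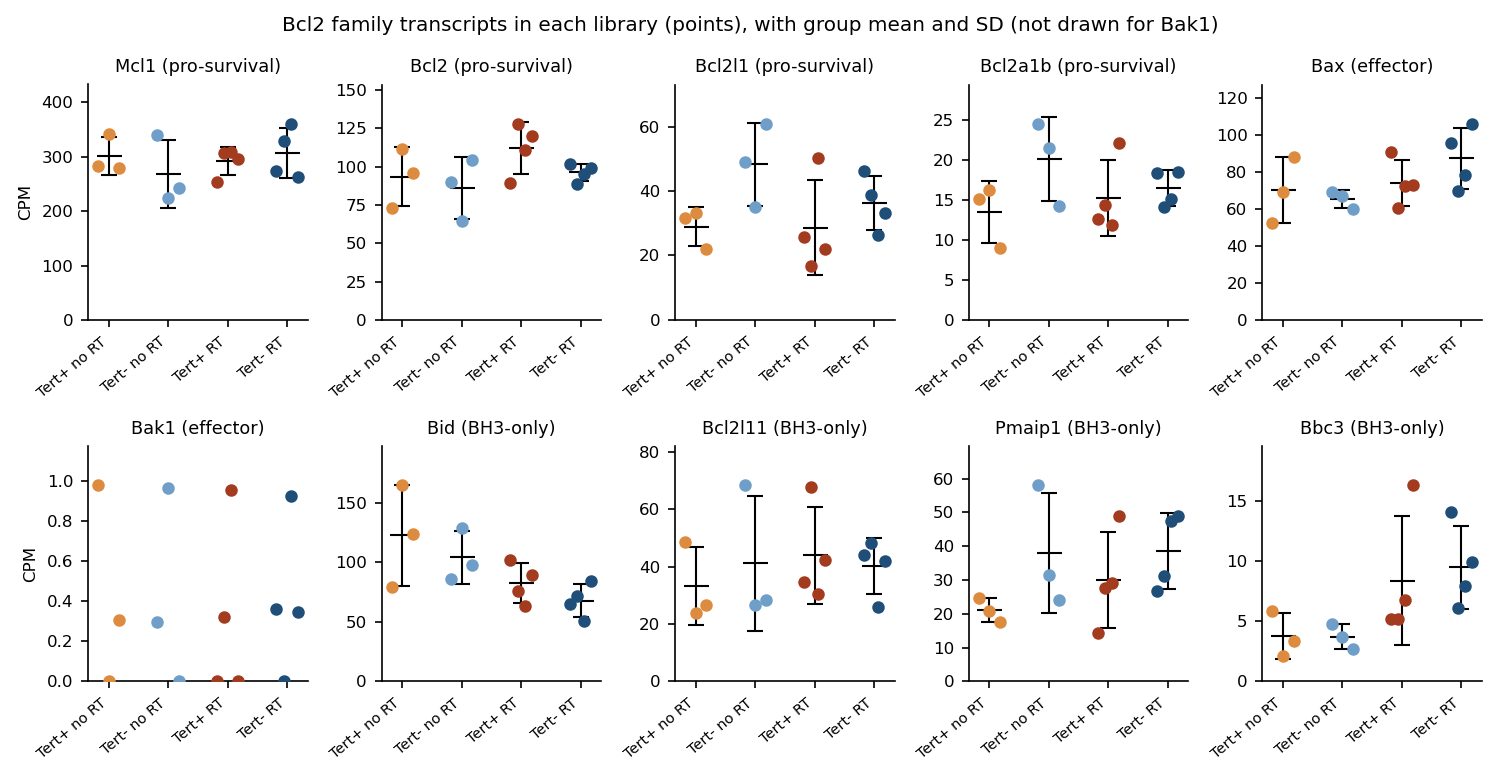
Level of each of the 10 genes in CPM (y axis, separate scales) in every library (points) of the 4 groups (x axis), with the group mean and SD as bars except for Bak1. Bbc3 is higher and Bid lower after RT, with group means of 3.78, 3.73, 8.39 and 9.52 CPM for Bbc3 and 122, 104, 82.7 and 67.8 CPM for Bid from left to right.

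The count of members called was read against the share of all genes called. The members had been chosen with results of these data known, which limits this count and the member p-values too. After RT, averaged over both populations, 2 of 9 members were called, where 13.4% of the 15915 genes tested were called. Of the 2, Bbc3 was higher, as were 6.36% of genes, and Bid lower, as were 7%. That split of all genes was 1012 higher and 1114 lower, and with library totals alone as the scaling it was 1207 and 671. With both populations combined, libraries with RT and without it overlapped for each of the 9, where 3.15% of genes did not overlap. In Tert+ alone 0 of 9 were called with RT (background 1.98%), and in Tert- alone 0 of 9 (background 1.62%). Without an adjustment, 1 of 9 members had a p under 0.05 in Tert+ (Bid; background 18%) and 2 of 9 in Tert- (Bbc3 and Bid; background 18.8%). DESeq2 and limma voom called 0 of 9 in either. In Tert- the RT and no RT libraries did not overlap for 3 of 9 members, where 18.9% of all genes tested did not overlap. Bax and Bbc3 lay higher, as did 9.7% of genes, and Bid lower, as did 9.22%. In Tert+ they overlapped for each of the 9, where 15.5% of genes did not overlap. The 9 members had a median averaged log2 fold change of 0.18, and all genes tested -0.01.

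Between Tert+ and Tert- cells 0 of 9 members were called, either without RT (background 0.0377%) or after RT (background 0.0126%). DESeq2 and limma voom also called 0, and 0 of 9 had an unadjusted p under 0.05, where 4.5% of genes did without RT and 7.39% after it. Without RT the libraries did not overlap for 1 member, Bcl2l1, where 8.87% of genes did not. After RT they overlapped for each of the 9, where 4.88% of genes did not overlap. The RT effect did not differ detectably between the populations for any member, with 0 of 9 called by edgeR, DESeq2 or limma voom and 0 at an unadjusted p under 0.05. Of all genes 0% were called by edgeR there, and 3.63% had an unadjusted p under 0.05. The intervals of that difference are wide, with the narrowest, for Mcl1, running from -0.72 to 0.25 on the log2 scale. The comparisons of RT in Tert+ and of Tert+ against Tert- without RT share the Tert+ no RT libraries, so their values are not independent.

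**Figure D3:**
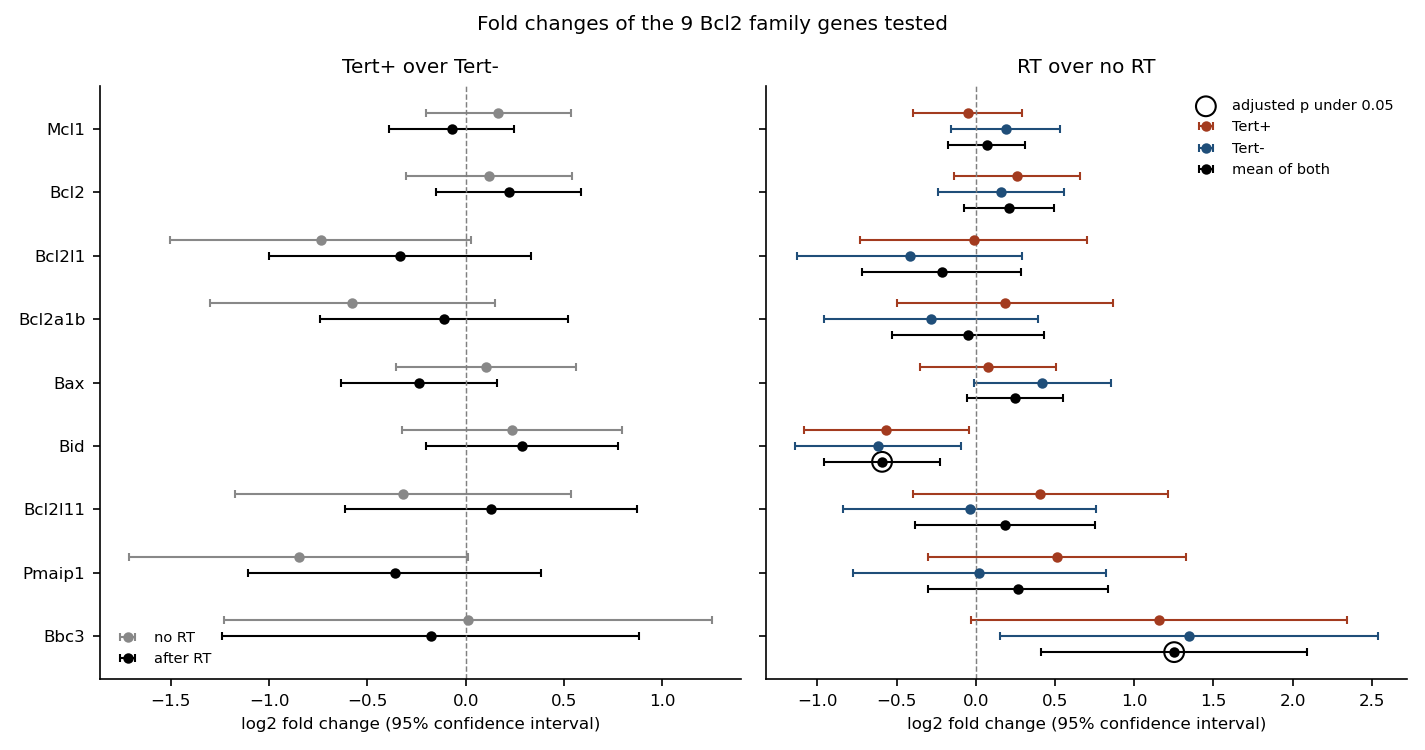
Log2 fold changes with 95% confidence intervals (x axis) of the 9 genes tested (y axis), for Tert+ over Tert- (left) and RT over no RT (right). Circles mark Bbc3 at 1.25 and Bid at -0.59 in the average of both populations, the calls past an adjusted p of 0.05.

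Per kilobase of gene length, the members differed widely in level. The median over the 14 libraries was 84.8 CPM per kilobase for Mcl1 (65.6 to 106), 45.0 for Bax, 24.0 for Bid and 18.5 for Bcl2a1b. It was 10.7 for Pmaip1, 10.6 for Bcl2, 7.23 for Bcl2l1, 4.77 for Bcl2l11, 2.61 for Bbc3 and 0.130 for Bak1. Mcl1 exceeded Bax in 14 of 14 libraries and Bax exceeded Bid in 13. Pmaip1 and Bcl2 could not be ordered, Pmaip1 being the higher in 7 of 14, and Bid exceeded Bcl2a1b in 10 of 14.

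The summed level of the 4 pro-survival members was 121 ± 16.2, 123 ± 23.5, 122 ± 11.9 and 128 ± 9.78 CPM per kilobase in Tert+ no RT, Tert- no RT, Tert+ RT and Tert- RT (SD; n = 3, 3, 4 and 4). The effectors, almost wholly Bax as counted here, summed to 44.7 ± 11.2, 41.7 ± 3.08, 47.1 ± 7.91 and 55.7 ± 10.5 CPM per kilobase in the same order. The Bak1 part of this sum is less certain, since the gene lies within another on the opposite strand. The BH3-only members summed to 48.4 ± 9.05, 50.5 ± 8.11, 44.1 ± 8.93 and 43.1 ± 5.96 CPM per kilobase. The 4 pro-survival members made up 56.7 ± 4.92%, 57.0 ± 3.85%, 57.3 ± 4.42% and 56.6 ± 5.46% of the summed length-scaled level of these 10 genes, which leaves out relatives such as Bcl2a1d, Bad and Bcl2l13. The group means of this share lay closer together than the SD within any group, and single libraries ran from 49.6 to 61.1%. No p is given, since the members had been chosen with results of these data known.

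**Figure D4:**
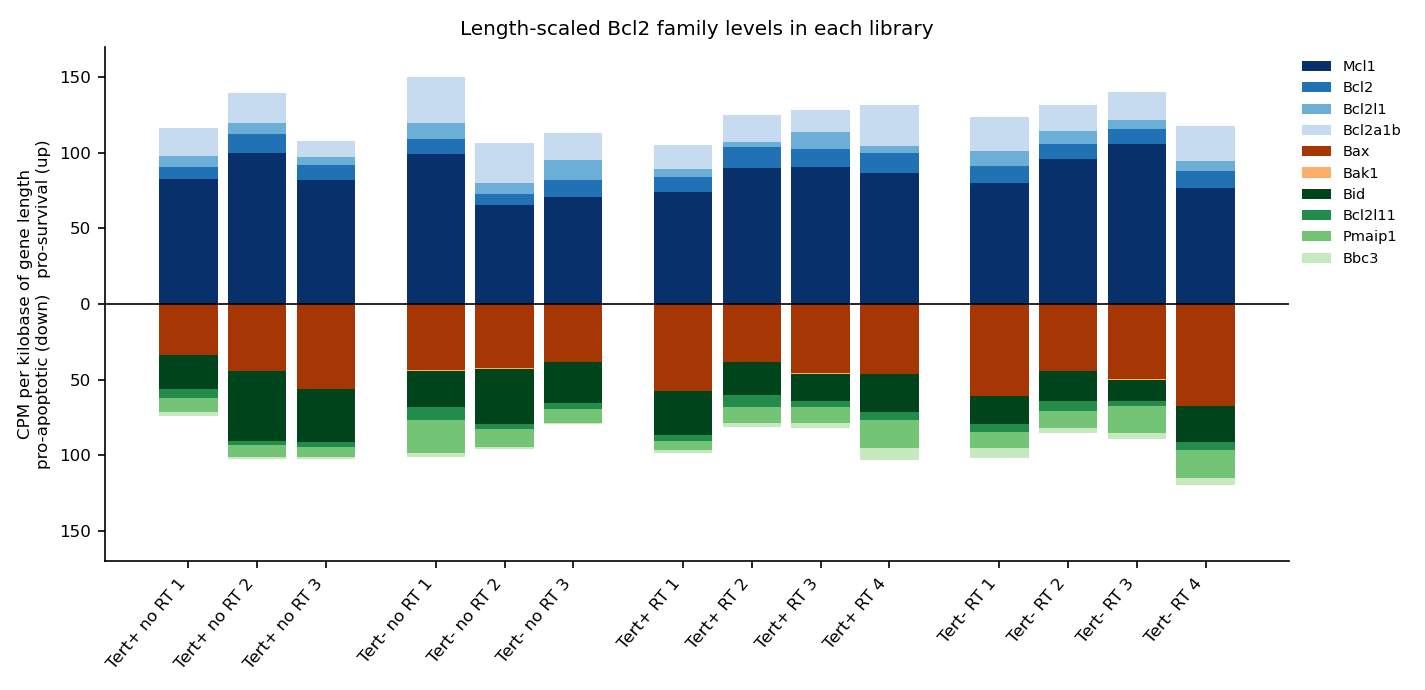
Length-scaled level in CPM per kilobase (y axis) of the pro-survival members, stacked upward, and of the effectors and BH3-only members, stacked downward, in each of the 14 libraries (x axis). The upward bars reach 105 to 150 and the downward bars 74.3 to 119, with Mcl1 the tallest segment upward and, in 13 of 14 libraries, Bax the tallest downward.

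Other apoptosis genes were read from lists chosen by their role. Counts in these lists stand against 13.4% of all genes called in the averaged RT comparison (6.36% higher and 7% lower) and 3.15% without overlap, and several are near those shares. Of 3 other pro-survival family members tested, 0 passed in any of the 6 comparisons with edgeR, DESeq2 or limma voom, and 1 had an unadjusted p under 0.05 in the averaged RT comparison. Those with the highest levels were Bcl2a1d, a copy of Bcl2a1b, at 24.7 to 74.8 CPM and Bcl2a1a at 0 to 13.6 CPM. Of 6 other pro-apoptotic members tested, 1 fell after RT in the average of both populations. This was Bad, a BH3-only protein inhibited by survival kinases, at 16.8 ± 4.65 CPM with RT (SD, n = 8) and 28.0 ± 6.80 without (SD, n = 6), which fell by 0.73 on the log2 scale (edgeR adjusted p = 0.0357). In the list of the apoptosome and caspases, initiators included, 0 of 8 genes passed in any comparison with edgeR, DESeq2 or limma voom, and at most 2 had an unadjusted p under 0.05 in a comparison. The initiator caspase gene Casp8 was at 73.3 to 131 CPM and Cycs, which encodes cytochrome c, at 74.2 to 123 CPM over the 14 libraries.

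In the death receptor list 2 of 10 genes rose and 2 fell with RT, averaged over both populations. Tnfrsf10b, the mouse receptor for the ligand Trail and a p53 target, was at 11.5 ± 4.69 CPM with RT and 4.10 ± 1.40 without (SD, n = 8 and 6), and the ranges did not overlap. Its log2 fold change was 1.48 ± 0.35 (SE; edgeR adjusted p = 0.014). Cflar, which encodes the caspase-8 inhibitor c-FLIP, rose by 0.56 (edgeR adjusted p = 0.0441). Tnfrsf1a, a receptor for tumour necrosis factor, fell by 1.60, and its adaptor Tradd fell by 0.74 (edgeR adjusted p = 0.0108 and 0.0312). Among 10 inhibitors of caspases and their antagonists 1 fell, Birc5, which encodes survivin and is known from dividing cells, by 3.32 (edgeR adjusted p = 0.0148). DESeq2 called 4 of those 10 genes and limma voom 2. Birc5 was at 2.62 to 12.8 CPM without RT and 0 to 3.25 CPM with RT.

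Among 10 tested p53 regulators 1 rose and 1 fell. Mdm4, an inhibitor of p53, rose from 85.4 ± 27.1 CPM (SD, n = 6) to 195 ± 49.6 CPM (SD, n = 8), a log2 fold change of 1.18 ± 0.19 (SE; edgeR adjusted p = 0.00192), and it was also called in Tert- cells alone at 1.26 (edgeR adjusted p = 0.036). Chek1, a kinase of the DNA damage checkpoint in S phase, fell by 2.57 (edgeR adjusted p = 0.0436). With RT in Tert+ alone, edgeR called 0 of these 10 p53 regulators, DESeq2 3 and limma voom 3. In Tert- alone each tool called 1. At an unadjusted edgeR p under 0.05 there were 5 in Tert+ and 1 in Tert-, where 18% and 18.8% of all genes were. For the difference of the RT effects, 0 of the 10 were called by any of these tools. In the list of Mcl1 turnover enzymes and mitochondrial partners 2 of 10 rose and 1 fell, averaged over both populations. Huwe1, a ubiquitin ligase of Mcl1, rose by 0.85 and Usp9x, a deubiquitinase of Mcl1, rose by 0.40 (edgeR adjusted p = 0.0166 and 0.0231). Vdac3, a channel of the outer mitochondrial membrane, fell by 0.47 (edgeR adjusted p = 0.0487).

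Of 15 transcription factors known to regulate family members, 2 rose and 3 fell in the averaged RT comparison. Bcl6, the germinal centre repressor, was at 97.2 ± 9.39 CPM with RT and 192 ± 54.9 without (SD, n = 8 and 6), with no overlap. It fell by 0.98 on the log2 scale (edgeR adjusted p = 0.00106), and by 1.01 in Tert+ and 0.95 in Tert- cells alone (edgeR adjusted p = 0.0238 and 0.0327). Rel, an NF-kB subunit of lymphocytes, rose by 0.99 and Atf4, of the integrated stress response, rose by 0.65 (edgeR adjusted p = 0.00645 and 0.0161). Rela, another NF-kB subunit, fell by 0.43 (edgeR adjusted p = 0.025). E2f1, a cell cycle factor named after its values were seen, fell by 0.83 (edgeR adjusted p = 0.0414).

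The averaged calls of Birc5, Tnfrsf10b, Tnfrsf1a, Mdm4, Rel, Atf4 and Bcl6 held in each of 14 leave-outs. Huwe1 held in 13, ending without Tert- no RT replicate 3 (edgeR adjusted p = 0.0502), Usp9x in 10, Rela in 8, Tradd in 5, Bad, Cflar, Vdac3 and E2f1 in 4 and Chek1 in 3. Their highest adjusted p over the leave-outs was 0.0659 for Usp9x, 0.0755 for Rela, 0.106 for Tradd, 0.127 for Bad, 0.115 for Cflar, 0.139 for Vdac3, 0.135 for E2f1 and 0.104 for Chek1 (edgeR). Within populations, the Mdm4 call in Tert- held in 8 leave-outs, and that of Bcl6 in 10 in Tert+ and 7 in Tert-, with adjusted p up to 0.148, 0.132 and 0.132 (edgeR).

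Other processing also ended some of these calls. With library totals alone the edgeR adjusted p was 0.0624 for Bad, 0.0582 for Tradd, 0.0555 for Chek1, 0.102 for Vdac3, 0.0732 for Rela and 0.0745 for E2f1, and with DESeq2 size factors it was 0.058 for Vdac3. With no filter it was 0.0536 for Bad, 0.0573 for Chek1 and 0.0978 for E2f1. With a replicate block it was 0.0642 for Bad, 0.099 for Cflar, 0.14 for Chek1, 0.145 for Vdac3, 0.0543 for Rela and 0.052 for E2f1. Without both Tert+ RT replicates 3 and 4 it was 0.0688 for Bad, 0.0813 for Cflar, 0.0777 for Vdac3, 0.0916 for Rela and 0.106 for E2f1. Within populations, fitting the compared groups alone gave 0.0616 for Mdm4 in Tert- and 0.0785 for Bcl6 in Tert+. The Bcl6 call also ended in Tert+ without both libraries (0.0983) and in Tert- with library totals alone (0.0574).

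**Figure D5:**
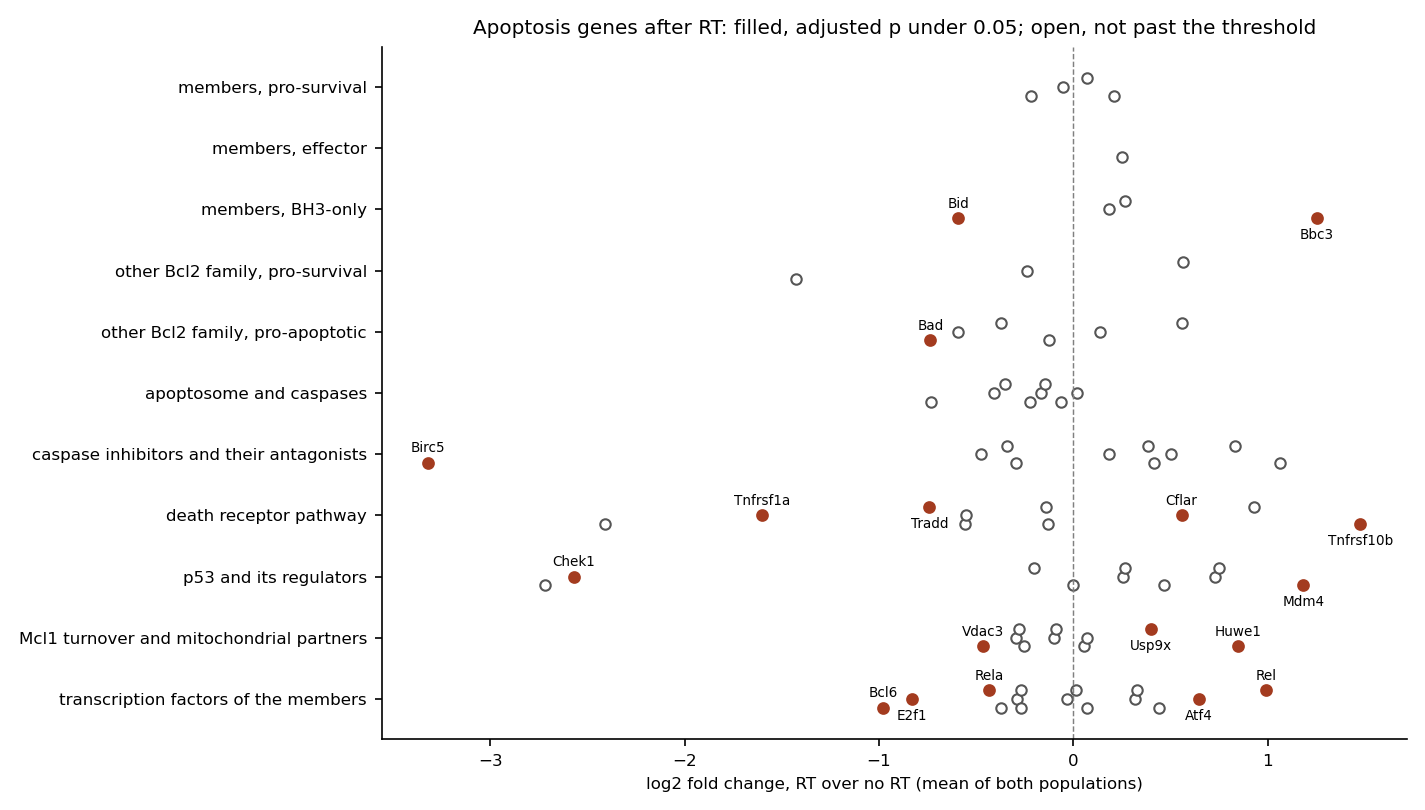
Averaged log2 fold change with RT (x axis) of each tested gene (points) in the family and in the lists of other apoptosis genes (y axis); filled points with a name have an adjusted p under 0.05. The pro-survival members lie between -0.22 and 0.21, and named genes lie on both sides of 0 in each list that has more than 1.

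Some cell type markers changed in the averaged RT comparison as well. Counts in these marker lists stand against 13.4% of all genes called (6.36% higher and 7% lower), and the acinar count is near that share. Of 7 germinal centre B cell markers 6 fell, their sum going from 292 to 733 CPM without RT to 110 to 144 CPM with RT. Bcl6, given above among the transcription factors, is also in this list and enters this sum, so the lists are not separate. Of 8 general B cell markers 0 passed with edgeR and 1 with DESeq2 or limma voom (2 at an unadjusted p under 0.05), with sums of 7772 to 12935 CPM without RT and 8925 to 11187 CPM with RT. T cell markers (8 genes, 2 falling) summed to 445 to 830 CPM without and 222 to 616 CPM with RT, and of 9 epithelial markers 0 passed with edgeR or limma voom and 1 with DESeq2. Of 6 tested plasma cell markers 1 rose and 2 fell (sums of 576 to 706 CPM without and 552 to 716 CPM with RT), and of 6 tested neutrophil and monocyte markers 3 fell with edgeR (54.9 to 575 CPM without and 18.7 to 349 CPM with RT). Of these neutrophil and monocyte markers DESeq2 called 3 and limma voom 1. Of 8 acinar markers 1 fell with edgeR and 2 were called by DESeq2 and 0 by limma voom, with 3 at an unadjusted p under 0.05 and a median log2 fold change of -0.93. Acinar sums were 878 to 9930 CPM without and 1092 to 5018 CPM with RT. Named after their values were seen, the markers that fell were Lck and Cd2 (T cell), Jchain and Xbp1 (plasma cell), Ccr2, Ly6c2 and Cxcr2 (neutrophil and monocyte), Csf1r and Cd68 (macrophage) and Lpo (acinar), and Irf4 (plasma cell) rose. Macrophage markers (8 genes) summed to 1548 to 1888 CPM in Tert- no RT and 123 to 283 CPM in Tert+ no RT, the comparison in which Bcl2l1 did not overlap. They summed to 253 to 1177 CPM in Tert- RT and 98.0 to 192 CPM in Tert+ RT, and 2 of the 8 fell in the averaged comparison. The part of these cell types in the Bbc3, Bid and Bcl2l1 values was not tested.

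The genes whose pattern over the 14 libraries was most like that of Bbc3 were Smad3, Zhx2 and Rpl41. Likeness was the root mean square difference of centred log2 CPM among 8228 genes with enough counts. It was 0.408, 0.411 and 0.417 for these genes, where Bbc3 itself deviated from its mean by 0.781. Most like Bid were Tmem173, Uchl3 and Bub3, at 0.163, 0.167 and 0.183, where Bid deviated by 0.434. Smad3 was at 42.6 CPM with RT and 16.9 without, and Tmem173 at 116.5 CPM and 180.7 CPM.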

How the data were processed

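RNA was sequenced from 14 libraries of sorted submandibular gland cells. The deposited table holds whole-number read counts per gene, 1 column per library and not normalised, with each gene's position and length, per the file headers. The submitters' processing notes name HISAT2 and mm10, while the counting program, its strand setting and the annotation release are not given in the sources used here. With R 4.3.3 and edgeR 4.0.16, genes were filtered by filterByExpr on the 4 groups, scaled by TMM and fitted with 1 term per group over all 14 libraries. Two-sided quasi-likelihood F tests gave p-values adjusted by the method of Benjamini and Hochberg over 15915 genes. The 6 comparisons were Tert+ against Tert- without and after RT, RT in each population, the difference of the RT effects, and their mean ("averaged"). The script was tested on simulated data. Levels are CPM, and SE is the log2 fold change divided by the root of F.

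The 10 members, the gene lists and the comparisons were chosen with earlier results of these data known. All members were named. From each list up to 4 genes past an adjusted p of 0.05 in a comparison were named by smallest p, or the 2 with the highest mean level where none passed. For each member called, the 3 genes most like it, taken among genes whose mean log2 CPM reached 3, were named. No library pair within a group was a duplicate, the lowest chi-square per degree of freedom over 18 pairs being 21.7. Depth was 5520412 to 15943597 counts, and floors cover counting error only. Alternatives were DESeq2 1.42.0, limma 3.58.1 voom, other scalings, no filter, fits of the compared groups alone, a replicate block and leaving libraries out.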

Additional observations from a re-analysis of the deposited data

Results flagged for a closer look

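Bbc3 in Tert+ RT replicate 4 stood far from the other libraries of its group, at 16.3 CPM (191 counts) where the nearest was 6.82 CPM. The gap took 0.852 of the group's whole range. The same library had the lowest median rank correlation with its group, 0.912. Without it the averaged RT change of Bbc3 was 0.98 on the log2 scale (edgeR adjusted p = 0.0905). Among 22 such checks of groups of 4 libraries 1 stood out, where each check has a 5% chance of doing so.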

How the results depend on the processing

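The averaged RT changes of Bbc3 and Bid kept their direction under each alternative and leave-out. Of the 2 members called, 1 remained with library totals alone, where Bid was at -0.52 (edgeR adjusted p = 0.0794). Without a filter 1 member was called, with Bbc3 at 1.25 (edgeR adjusted p = 0.0916), and with a replicate block also 1, with Bbc3 at 1.01 (edgeR adjusted p = 0.113). Without both Tert+ RT replicates 3 and 4 the count was 0, and over the leave-outs it ran from 0 to 2. DESeq2 gave Bbc3 an adjusted p of 0.0071 and Bid 0.013, and limma voom 0.0373 and 0.0401. Counts of all genes called moved more. Tert+ against Tert- without RT had 6, against 16 with no filter, 83 with DESeq2, 26 with limma voom, 16 without both Tert+ RT libraries, and 1 to 13 over the leave-outs. After RT it had 2, against 4 with no filter, 146 with DESeq2, 0 with limma voom, 1 with the compared groups alone, 1 with a replicate block, 0 without both libraries, and 0 to 7. RT in Tert+ had 315, against 1167 with DESeq2, 482 with voom, 49 with the compared groups alone, 53 without both libraries, and 21 to 507. RT in Tert- had 258, against 1330, 405 and 88 with DESeq2, voom and the compared groups alone, and 18 to 901. The difference of the RT effects had 0, against 21 with DESeq2, and 0 to 1, and the averaged RT comparison 2126, against 3211 with DESeq2, and 1211 to 2516. The cause of these shifts was not tested.

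Without division by gene length the pro-survival share was 63.6, 62.4, 65.1 and 65.1% in Tert+ no RT, Tert- no RT, Tert+ RT and Tert- RT, since the division weights long genes less. Leaving out Bcl2a1b, a pro-survival member with counts in every library, lowered the share in every group, and in Tert- no RT it was 51.5%. Over the leave-outs it ran from 54.5 to 59.4%, 55.6 to 59.2%, 56.1 to 59.3% and 55.1 to 58.9%.

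No member value that changed sign was past the threshold. Of 414 member values under alternatives other than leave-outs 392 kept direction and call, 17 changed sign and 5 lost a call, and of 756 in leave-outs 694, 44 and 18 did. In Tert+ against Tert- without RT, Bbc3 was at -0.047 with library totals, -0.0049 with DESeq2, -0.24 with voom and -0.058 with a replicate block. With RT in Tert+, Bcl2l1 was at 0.0099 with DESeq2 size factors, 0.066 with library totals and 0.010 with DESeq2, Mcl1 at 0.029 with library totals, and Pmaip1 at -0.0028 without both Tert+ RT libraries. With RT in Tert-, Bcl2l11 was at 0.021 with library totals, 0.016 with voom and 0.0056 with a replicate block, and Pmaip1 at -0.18 with the block. For the difference of the RT effects, Bbc3 was at 0.055 with voom, and Bcl2l1 at -0.032 and Pmaip1 at -0.037 without both libraries. Bcl2a1b in the averaged comparison was at 0.030 with library totals.

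Leave-outs that changed a sign ran from -0.060 to 0.28 for Bcl2, -0.10 to 0.28 for Bax, -0.70 to 0.25 for Bcl2l11, -0.44 to 0.30 for Bbc3 and -0.033 to 0.47 for Bid in Tert+ against Tert- without RT. Ranges were -0.16 to 0.016 for Mcl1, -0.16 to 0.27 for Bcl2l11 and -0.72 to 0.073 for Bbc3 in the same after RT. They ran from -0.43 to 0.17 for Bcl2l1, -0.098 to 0.056 for Mcl1, -0.047 to 0.35 for Bcl2a1b and -0.090 to 0.28 for Bax with RT in Tert+. Ranges were -0.015 to 0.32 for Bcl2, -0.27 to 0.55 for Bcl2l11 and -0.21 to 0.48 for Pmaip1 with RT in Tert-. They ran from -0.058 to 0.29 for Bcl2, -0.0087 to 0.60 for Bcl2l1, -0.13 to 0.82 for Bcl2l11, -0.73 to 0.26 for Bbc3 and -0.19 to 0.32 for Bid for the difference of the RT effects. Ranges were -0.16 to 0.043 for Bcl2a1b in the averaged comparison.

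Replicate numbers were not treated as pairs, since no label states a shared gland or day. Same-numbered Tert+ and Tert- libraries of an RT arm do carry consecutive library numbers. Whether same-numbered libraries shared a gland was not tested. Correlations of deviations between same-numbered libraries were -0.05 to 0.12 over 7 pairs within an RT arm, 2 of them over 0.1, and -0.08 to 0.06 over 6 pairs across RT. In 4 of 7 and 2 of 6 pairs a library correlated best with its own number. For the RT comparisons the replicate block gave each replicate number a term shared by RT and no RT libraries. It thus did not pair Tert+ with Tert- within an RT arm there, as it did for the other comparisons. Apart from Bbc3, the replicate block changed no member call. Low counts limit Bbc3 and Bak1 most.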
